A study of Talpa occidentalis with 2 samples.

Results

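The collagen genes of the Iberian mole, Talpa occidentalis, were read from the deposited gene models of mole build talOcc3. Members were all symbols made of COL, a number, A and a number, after removal of the suffixes that mark further copies or low confidence. The rule found 40 collagen symbols among 16075 symbols in all, carried by 61 of the 21076 models that had a symbol. The series itself used 4C-seq, which sequences the DNA fragments that lie near a chosen viewpoint in the nucleus, with the transcription start of FGF9 as viewpoint. Wild-type embryos of embryonic day 15 gave 1 forebrain library and 1 hindlimb library, with no replicate of either tissue. No transgene or treatment other than fixation is named for either library. The annotation has no column for either library, so the values below describe 1 assembled genome and carry no replicate error, and contact values and depth per library were not analysed here.

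Collagens are the main structural proteins of skin, bone, cartilage, tendon and basement membranes. Each chain carries stretches of a repeated triplet, glycine followed by any pair of residues, and chains with such stretches wind around each other into a triple helix. In the genes of fibril-forming collagens the helix is encoded by many short exons that begin with a whole glycine codon and hold whole triplets, so that an exon can be gained or lost without a break in the repeat. A triplet takes 9 coding bases, and an exon of 54 bases holds 6 triplets.

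Of 44 human collagen genes in a list written from general knowledge, 40 had a model. COL6A1, a chain of the beaded filaments of type VI collagen, COL9A3, a chain of the cartilage collagen IX, COL18A1, the source of endostatin, and COL20A1 had none. RefSeq's gene table for the later mole build MPIMG_talOcc4v2.1 names 3 of these 4, all but COL20A1, and 39 of the 40 members, all but COL19A1. EVM, which merges evidence from several sources into a gene model, made 60 of the 61 models, and exonerate, an aligner, made the other. The models lay on 22 scaffolds, 2 of them lay on scaffolds whose annotation ends before 1 Mb, and 0 were marked low confidence. In 5 models the coding length was not a multiple of 3, and in 5 the first coding exon started within a codon.

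Collagen exons had lengths in multiples of 9 more often than the exons of other genes. Internal coding exons, those that are neither first nor last in a model, numbered 1604 in the collagen models. Their length was a multiple of 9 in 1024 (63.8%, 95% Wilson interval 61.5 to 66.2%), against 13.4% of the 137881 internal exons of all other models and 13.9% of those in other models with at least 20 coding exons. The interval covers counting error only, since exons of a gene and genes of a family are not independent. Lengths were measured and not the triplets themselves, so exons outside the helix are counted too where their length is a multiple of 9, such as those of 603 and 585 bases in COL6A3. Exactly 54 bases were measured in 392 exons (24.4%, 22.4 to 26.6%), against 0.42% of the other exons, and a multiple of 54 in 495 (30.9%, 28.6 to 33.2%), against 2.19%.

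The difference went beyond lengths that keep the reading frame. A length in multiples of 3, which keeps the frame, was found in 1368 collagen exons (85.3%) and in 39.8% of the other exons. Among these frame-keeping exons, 74.9% were also multiples of 9 in collagens, against 33.8% elsewhere. Collagen exons were also shorter, with a median of 59 bases against 125. When exons of 27 to 162 bases alone were compared, 70.1% of the collagen exons and 13.8% of the others were multiples of 9.

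Some lengths recurred often. After 54 bases, the commonest lengths were 45 bases (142 exons), 36 (96), 108 (87), 63 (65), 27 (43) and 99 (38). The 5 commonest lengths together held 782 of the 1604 exons. The lengths 54, 108 and 162, which are the lengths of whole sets of 6 triplets, held 493 exons, and 45 and 99, each 1 triplet short of such a set, held 180. In the plot of exon lengths these values stand as separate spikes in collagens, whereas the other genes show a broad hump.

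**Figure D1:**
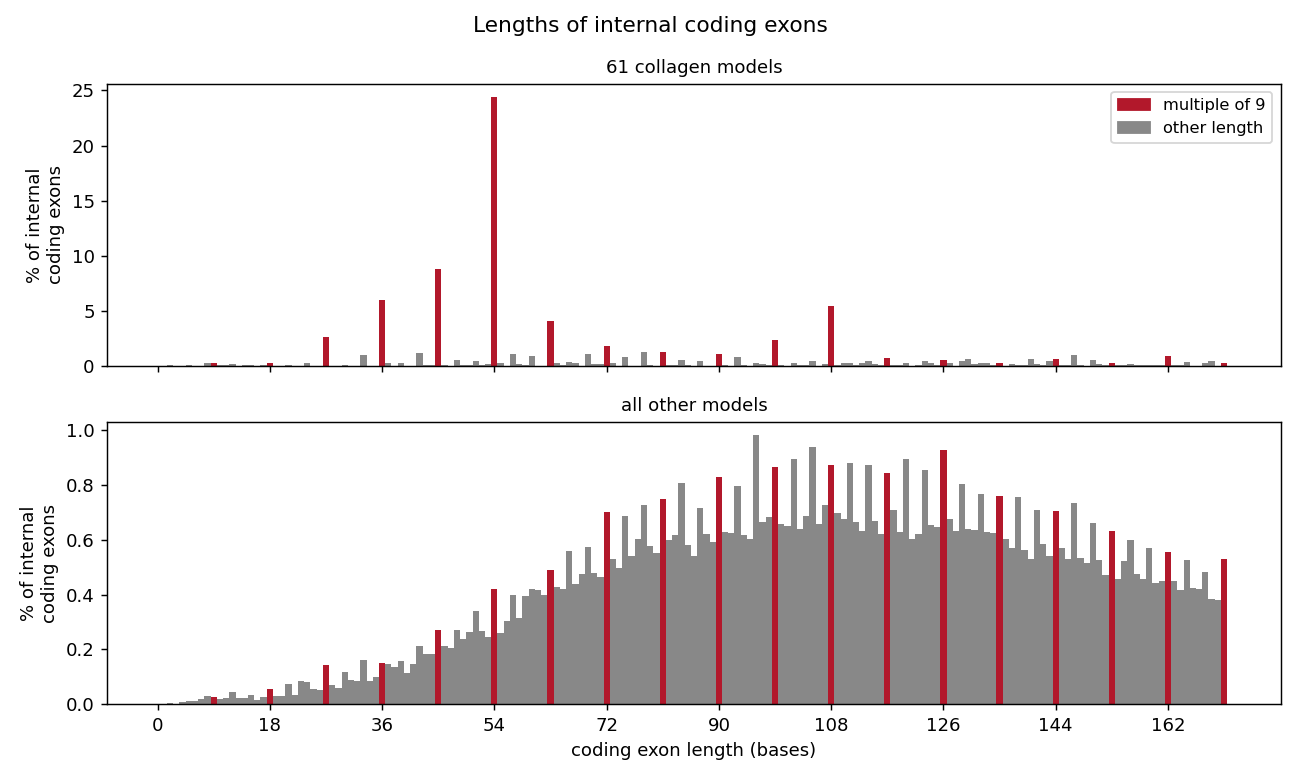
Share of internal coding exons (%, vertical axis) at each exon length in bases (horizontal axis) in the 61 collagen models (upper plot) and in all other models (lower plot, on a smaller vertical scale). Red bars are multiples of 9 bases; in collagens the bar at 54 bases reaches 24.4%, while in other models it stands at 0.42%.

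The fibrillar collagens, whose chains assemble into the cross-striated fibrils of tissues, had the most regular exons. Of 590 internal exons in their 16 models, 81.5% were multiples of 9 (78.2 to 84.4%), 46.1% were exactly 54 bases and 59.5% were multiples of 54. Their commonest lengths were 54 (272 exons), 108 (71), 45 (69) and 99 (25). By symbol, taking the model with most coding bases, COL24A1 had 52 of 57 internal exons in multiples of 9 (91.2%), COL1A1, a chain of the main collagen of bone and skin, 40 of 45 (88.9%), and its partner chain COL1A2 46 of 52 (88.5%). COL11A2 (68.8%), a cartilage chain, and COL5A1 (71.9%) were the lowest of the 11 fibrillar symbols. The COL5A1 value rests on 1 of its 3 models, which matched bases 1311 to 3334 of the target. Later parts of the target were matched by its other models, whose exons did not enter this value.

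The order of exon lengths in COL1A2 shows what this regularity looks like. From the fifth coding exon to exon 15 the lengths ran 15, 36, 93, 54, 45, 54, 54, 54, 54, 54 and 45 bases. Exons 8 to 50 were then all multiples of 9, 43 exons in a row that together held 3042 bases, the length of 338 triplets. The last 4 coding exons, of 259, 185, 243 and 147 bases, came after this run, and 185 and 259 are not multiples of 3. In fibrillar genes the last exons encode mainly the end of the precursor that is cut off. The exact ends of the helix were not read here.

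Runs of this kind were longer still in a pair of other fibrillar genes. COL11A1 had 48 successive exons in multiples of 9 (exons 16 to 63), and COL5A3 also had 48 (exons 15 to 62); each run held 2979 bases, the length of 331 triplets. COL5A2 had 42 (exons 9 to 50), COL24A1 38 and COL2A1, the main cartilage collagen, 35. Not all fibrillar genes had long runs: that of COL11A2 held 16 exons, fewer than the 18 of the fibril-associated COL19A1. Over all 61 models, 31 (50.8%) had a run of at least 5 such exons. The share was 0.219% among the 23275 other models and 1.52% among the 1906 of these with at least 20 coding exons, and the longest run outside collagens was 15 exons, in ANK2, which encodes an ankyrin.

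**Figure D2:**
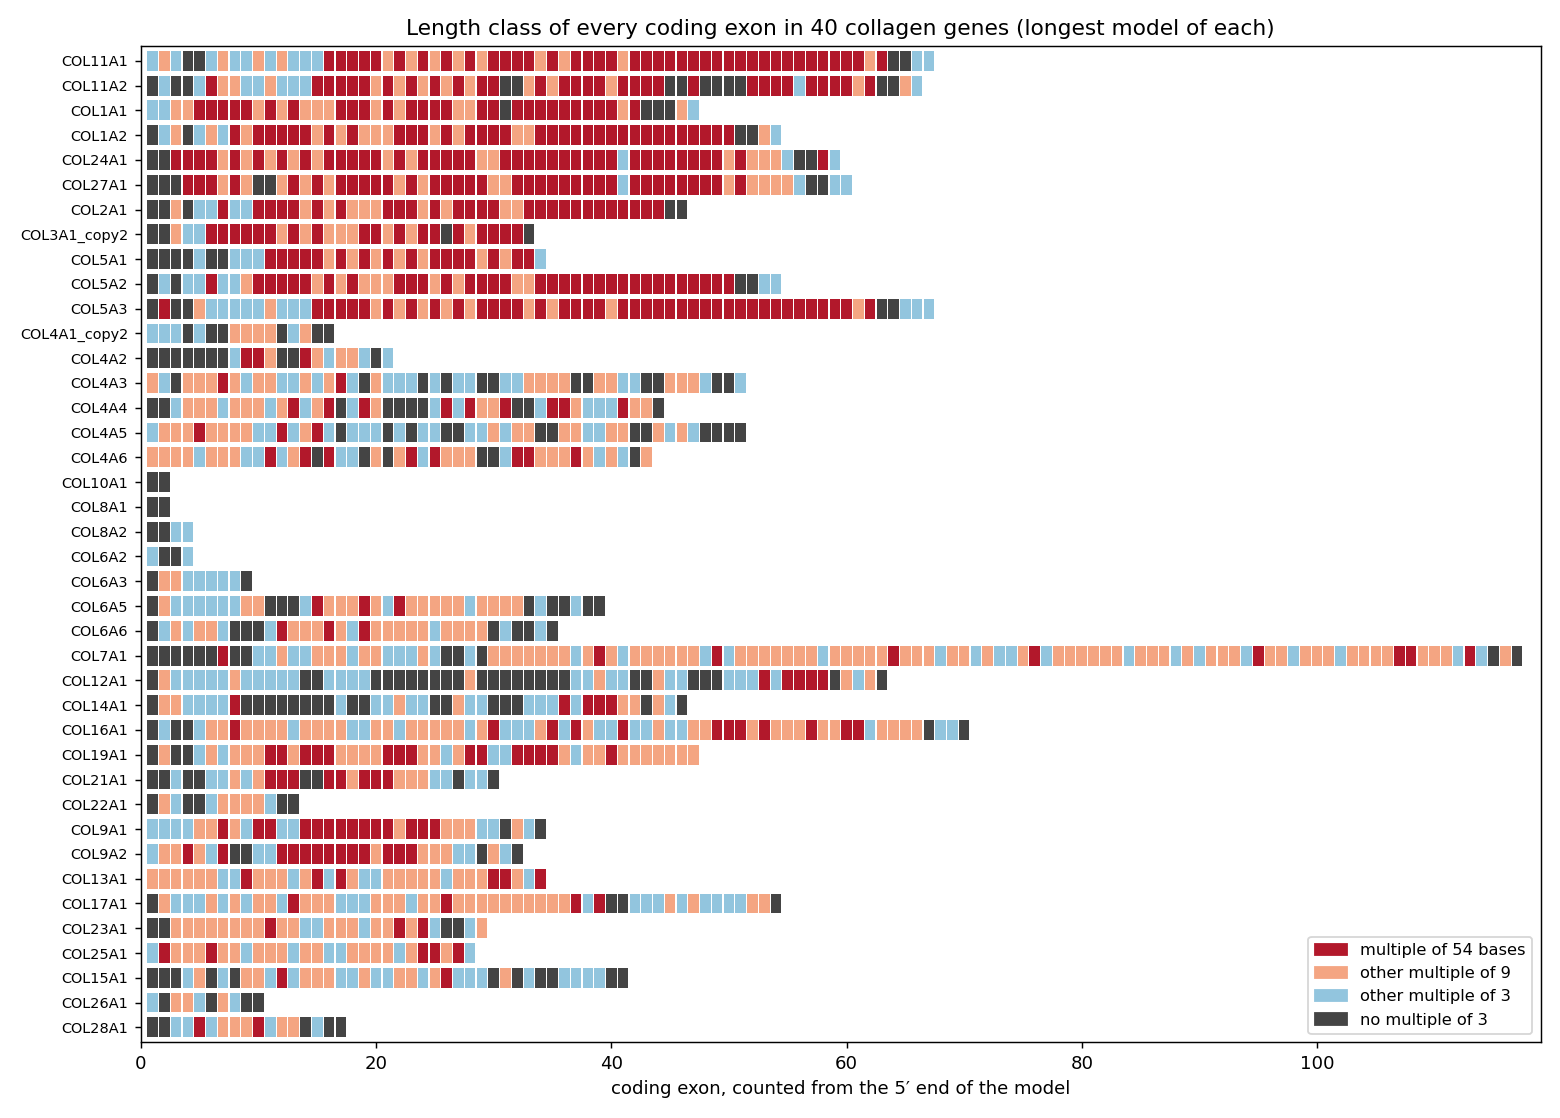
Every coding exon of the longest model of each of the 40 collagen symbols, drawn as 1 cell and counted from the 5′ end (horizontal axis, exon number); cell width does not show exon length. Dark red marks multiples of 54 bases, orange other multiples of 9, blue other multiples of 3 and grey the rest; fibrillar genes (top 11 rows) are mostly dark red, COL7A1 with 117 exons is mostly orange, and COL12A1 is mostly blue and grey.

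The collagens that lie on the surface of fibrils, the fibril-associated group, were mixed. Of 336 internal exons, 53% were multiples of 9 and 22.9% were exactly 54 bases, which was the commonest length (77 exons). COL19A1 reached 82.2%, COL9A2 70%, COL9A1 68.8% and COL16A1 66.2%. At the other end stood COL14A1 (12 of 44, 27.3%) and COL12A1 (12 of 61, 19.7%), large proteins made mainly of fibronectin type III and von Willebrand factor A domains with short triple helices. Among the 35 collagen symbols with a model of at least 10 internal exons, COL12A1 was the one under 20%. Its multiples of 54 lay together near the 3′ end, where exons 53 and 55 to 57 were each 54 bases and exon 58 was 108.

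Network and filament collagens used other unit lengths. In COL7A1, which forms the anchoring fibrils that fasten the epidermis to the dermis, 76 of 115 internal exons were multiples of 9 (66.1%), yet 36 bases was the commonest length in this class (26 of 119 exons, 21.8%) and 54 made up 5.88%. In the beaded-filament collagens of type VI the commonest length was 63 bases (20 of 103 exons, 19.4%). In the pooled exons of the transmembrane collagens COL13A1, COL17A1, COL23A1 and COL25A1 it was 27 bases (24 of 143, 16.8%). Within this class 27 bases was the commonest length in COL13A1 and COL23A1, whereas it was 36 in COL17A1 and 45 in COL25A1. COL13A1 had 27 bases in each of exons 2 to 6. The basement membrane collagens of type IV had no leading length: 45 bases was found in 13 of 247 exons, and 36, 54, 99 and 108 in 11 each.

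The share of multiples of 9 in these classes still stood above that of other genes. It was 68.5% in the transmembrane group, 64.7% in the COL7A1 models, 49.5% in the type VI group, 47% in type IV (40.8 to 53.2%) and 31.7% in the COL15A1 models (19.6 to 47%). COL26A1 and COL28A1 together had 10 of 23 (43.5%). The short-chain collagens COL8A1, COL8A2 and COL10A1, which form hexagonal networks, stood apart because most of their coding sequence lay in 1 long exon: 1910 bases in COL8A1, 1889 in COL10A1 and 1337 in COL8A2. They held 2 internal exons in all, and neither was a multiple of 9.

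Ranked by symbol, 35 collagens had a model with at least 10 internal exons. COL6A3 enters this ranking with COL6A3_copy2, since its model with most coding bases had 7 internal exons. Their median share of multiples of 9 was 66.2%, against 11.8% over 4933 other symbols of that size. A share of at least 50% was reached by 25 of the 35 (71.4%) and by 27 of the 4933 (0.547%).

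The other symbols with the highest shares were mostly genes with another repeat. MARCO, a macrophage receptor that itself holds a collagen-like domain, had 11 of 12 internal exons in multiples of 9 (91.7%). SCUBE3 and SCUBE2, LGR5 and LGR6, RXFP1 and RXFP2, ANKDD1A, ANKRD6 and ANK2 followed, at 60 to 73.7%. The commonest length was 72 bases in the LGR and RXFP receptors, which carry leucine-rich repeats, 99 in the ankyrin-repeat genes and 117 in the SCUBE genes, and none of these 10 symbols had an exon of 54 bases.

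Where exons joined relative to the codons was read from the deposited phase, the number of bases before the next codon starts. In collagens 72.6% of internal exons were in phase 0, starting with a whole codon, 3.24% in phase 1 and 24.2% in phase 2; in other models the shares were 45.7%, 22.9% and 31.4%. Fibrillar exons were in phase 0 in 89.8%. Among multiples of 9 alone, 871 of 1024 collagen exons were in phase 0 (85.1%), against 56.2% of such exons elsewhere. In all 1664 pairs of successive exons in collagen models, the second phase was the one that the first exon's length and phase give.

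Not all collagens kept to phase 0. Phase 2 held 40.8% of internal exons in the type VI class and 25.9% in the fibril-associated class. Within the latter, exons 2 to 14 of COL12A1 were all in phase 2. In COL17A1, a transmembrane collagen of the junction between epidermis and dermis, 51 of 52 internal exons were in phase 2 (98.1%), so that its triplet-sized exons began 2 bases before a codon boundary. In type IV genes 52.2% were in phase 2, 44.5% in phase 0 and 3.24% in phase 1. The change set in part of the way along the gene. Counted from the fourth coding exon on, the first exon out of phase 0 was exon 20 of 51 in COL4A3, 18 of 44 in COL4A4, 18 of 51 in COL4A5 and 16 of 43 in COL4A6. From there to the last internal exon, phase 2 held 25 of 31 exons in COL4A3, 23 of 26 in COL4A4, 26 of 33 in COL4A5 and 24 of 27 in COL4A6.

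Multiples of 9 were also fewer beyond that place in 3 of these 4 genes. In COL4A5 the share was 9 of 14 exons before it and 9 of 33 from it on, in COL4A3 10 of 16 and 10 of 31, and in COL4A4 10 of 14 and 13 of 26. COL4A6 had 7 of 12 before it and 16 of 27 from it on, and did not show the drop. The exon just before that place did not hold whole codons: COL4A3 exon 19 was 85 bases and COL4A5 exon 17 was 133, and each leaves 1 base over.

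Exon lengths were shared between collagens exon by exon and in order. A run of at least 5 successive exons of equal lengths with a collagen of another symbol was found in 33 of the 61 models (54.1%). Among the 23275 other models 1 had such a run with a collagen (0.0043%): TPTE2P2, in which 9 of 25 internal exons were 54 bases, 8 of them in a row; it was named after its values were seen. Other models were compared with collagens only and not with their own relatives, so these shares do not compare collagens with other gene families. In collagens there were 145 pairs of models with a shared run, 84 within a class and 61 across classes. The runs across classes were at most 8 exons long and 60 of the 61 consisted of 54 and 45 bases alone. The other was shared by COL17A1 and COL7A1, with exons of 36, 36, 81, 36 and 54 bases.

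The longest shared runs linked the fibrillar genes in 3 sets. COL11A1 and COL5A3 had 53 successive exons of the same lengths (exons 11 to 63 and 10 to 62, 3300 bases), and COL5A1 and COL11A2 joined them over 24 and 17 exons. COL1A2 and COL5A2 shared 42 exons at the same exon numbers, 9 to 50 (2988 bases). COL2A1 shared 35 exons with both, COL1A1 26 with both, and COL3A1 14 with COL1A2, COL1A1 and COL5A2. COL24A1 and COL27A1, the third set, shared 22 exons, every one of them 54 or 45 bases. Runs also crossed these sets. COL24A1 shared 14 exons with each of COL11A1, COL11A2, COL5A1 and COL5A3, as many as COL3A1 shared within its own set and more than the 13 it shared with COL2A1. COL1A2 and COL11A1 shared 9 exons, of 54, 54, 54, 54, 54, 45, 54, 45 and 54 bases.

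Outside the fibrillar class, all shared runs of more than 8 exons joined models of the same class. COL9A1 and COL9A2, chains of 1 cartilage heterotrimer, shared 21 exons (1351 bases), and COL21A1 shared 12 with each. Across classes, COL9A1 and COL9A2 each shared 8 exons with a model of the fibrillar COL3A1. COL6A5 and COL6A6 shared 21 exons (1114 bases), and each shared 9 with a COL6A3 model. COL12A1 and COL14A1 shared 8 exons (1004 bases), none of which was a multiple of 54.

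Type IV chains are known to fall into an odd-numbered and an even-numbered group, each with the closer relatives. Of the 8 shared runs between type IV models, 7 joined chains within such a group and 1 joined COL4A6 with COL4A5, over 5 exons of 63, 36, 42, 93 and 54 bases. The odd-numbered COL4A5 and COL4A1 shared their last 9 coding exons, of 73, 72, 129, 99, 213, 178, 115, 173 and 82 bases, which encode the end of the helix and the noncollagenous domain through which type IV chains join. COL4A3 and COL4A5 shared a run of 8 exons, and each shared 5 with COL4A1_copy3. The even-numbered COL4A4 and COL4A6 also shared 8, and each shared 5 with COL4A2, of 64, 75, 108, 108 and 72 bases.

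Some models broke the pattern of their nearest relatives at single exons. COL1A1 matched COL5A2 for 26 exons up to its exon 29. Its exon 30 then measured 108 bases, where COL5A2 had a pair of exons that sum to 108, and its exon 31 measured 326 bases where the next COL5A2 pair sums to 108, a difference of 218. The next exon was 108 bases in both genes. Since 326 leaves 2 bases after whole codons, 12 later exons of COL1A1 were deposited in phase 1. COL11A2 had exons of 59, 55, 58, 104, 53 and 107 bases among its helix exons, whereas COL11A1 had multiples of 9 in all of exons 16 to 63. In these stretches the models differed in length from relatives that matched exon for exon elsewhere.

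Collagen genes had many more coding exons than most genes. Taking the longest model of each symbol, the median was 40 coding exons and 4328 coding bases over a span of 52.1 kb, against 8 exons, 1320 bases and 13.4 kb over 16035 other symbols. Other genes with many exons lay nearer to the collagens in span. The 1876 other symbols with at least 20 coding exons had medians of 26 exons, 3660 bases and 59 kb. Their median intron was 1161 bases, against 641 over all 40 collagens. The collagen medians were not limited to that exon number, which 31 of the 40 reached. Span and intron length at a like exon number were therefore not compared. At least 40 exons were counted in 20 of 40 collagens (50%) and in 1.5% of the others. COL7A1 had the most, 117 coding exons, a number that 4 other symbols reached. COL16A1 followed with 70, COL11A1 and COL5A3 with 67 each, COL11A2 with 66 and COL12A1 with 63. At the low end COL8A1 and COL10A1 had 2 exons each, and COL8A2 and COL6A2 had 4.

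Span was far less regular than exon number. COL1A1 spanned 14.2 kb with a median intron of 143 bases, and COL5A2 spanned 128 kb with a median intron of 985, 9 times as far for 1.05 times the coding length. COL5A3 and COL11A1 had the same 67 exons and a coding length ratio of 1, yet spanned 31 kb and 188 kb, a ratio of 6.05. COL9A2 and COL9A1 spanned 13.2 kb and 80.7 kb, a ratio of 6.13. Other pairs with shared runs lay closer together. COL24A1 spanned 249 kb and COL27A1 125 kb, COL6A6 301 kb and COL6A5 210 kb, and COL14A1 157 kb and COL12A1 103 kb. The median introns of COL6A6 and COL6A5 were nearly alike, at 1356 and 1252 bases.

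Wide and compact genes differed in how their introns were made up. COL7A1 packed its 9915 coding bases into 32.6 kb, with a median intron of 120 bases and 30.4% of its span coding. COL19A1 spread 3093 coding bases over 275 kb, of which 1.12% was coding and 15% was its longest intron. The widest model was COL6A6, at 301 kb, and 231 kb of that (76.7%) was 1 intron after exon 33 that held models of ASTE1 and PIK3R4 on the other strand. In RefSeq's order COL6A6 lies between COL6A5 and PIK3R4. COL6A5 had an intron of 125 kb after exon 4 and COL28A1 one of 77.1 kb after exon 11.

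**Figure D3:**
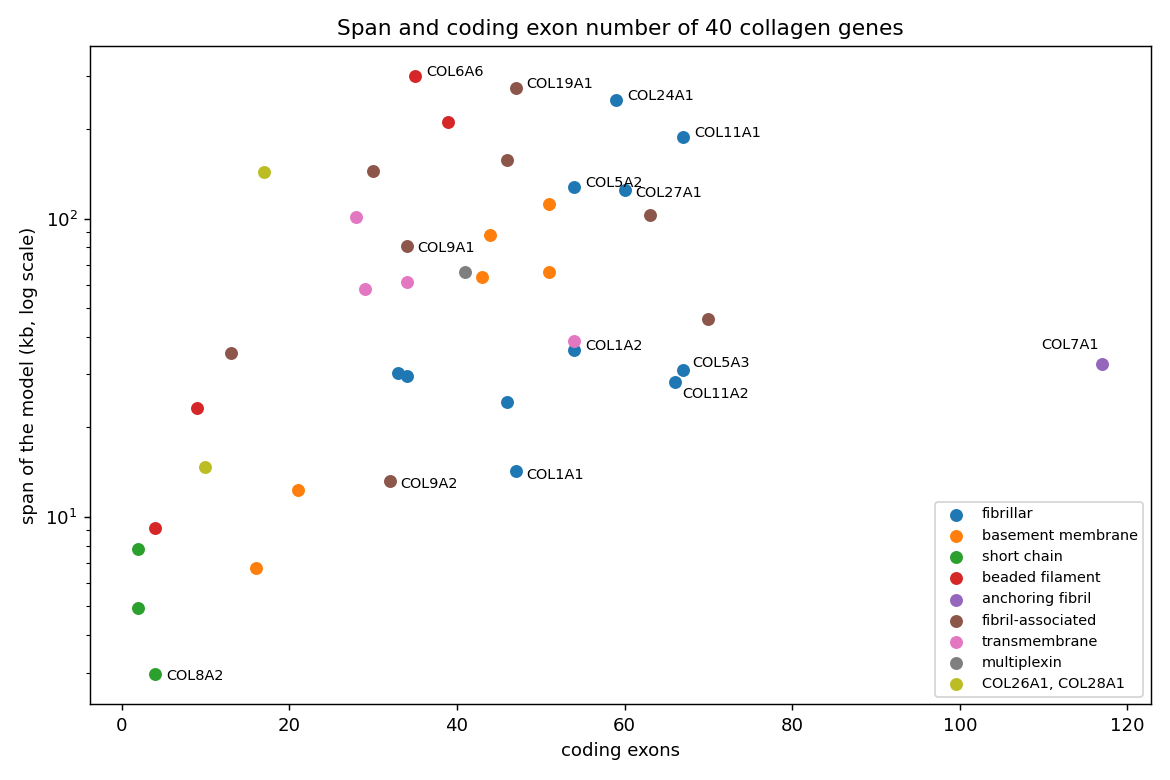
Span of the longest model of each of the 40 collagen symbols (kb, log scale, vertical axis) against its number of coding exons (horizontal axis), coloured by class. COL5A3 and COL11A1 share 67 exons but stand at 31 and 188 kb, and COL7A1 lies alone at 117 exons and 32.6 kb.

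Neighbouring collagen genes kept the arrangements known from the human genome wherever both genes had a model. In vertebrates the 6 type IV genes form pairs that are transcribed away from each other from a shared promoter region, so that each pair supplies an odd-numbered and an even-numbered chain. All 3 pairs were found in the deposited models, each with its 5′ ends facing and 0 models between. COL4A4 ended at 31613098 on the minus strand of scaffold 23 and COL4A3 began at 31680185 on the plus strand, 67.1 kb apart. COL4A1 and COL4A2 lay on scaffold 39, between 12488022 and 12597812, 110 kb apart. COL4A6 and COL4A5 lay on scaffold 32, between 18904792 and 19201139, 296 kb apart. RefSeq's order also had 0 genes between the members of each pair.

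The gaps are between coding models and not between transcription starts, since no untranslated first exon was read. With a limit of 10 kb, 0 collagen pairs counted as head-to-head, while 10.7% of all models stood in such a pair. With a limit of 1000 kb, chosen after seeing the data, the number was 3, and 40.5% of all models then stood in such a pair. All 6 models at these gaps matched their target transcripts from within: COL4A3 from base 258, COL4A6 from 274, COL4A4 from 395, COL4A5 from 512, COL4A2_copy2 from 667 and COL4A1_copy3 from 8255. These starts are not comparable between genes and do not measure how much of a 5′ end is missing. The 4 COL4A1 models together matched only the part from 8255 to 13072. Exons 2 to 6 of COL4A1_copy3 had the lengths of exons 2 to 6 of COL4A5.

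The remaining pairs lay tail-to-tail or on 1 strand. COL3A1 and COL5A2, chains that occur together in soft tissue fibrils, were tail-to-tail on scaffold 23, from 3086257 to 3101227, 15 kb apart. COL19A1 and COL9A1 were tail-to-tail on scaffold 7, from 14247690 to 14256994, with 9.3 kb between them. COL6A6 and COL6A5 followed each other on the minus strand of scaffold 12 at 51.1 kb. Within 10 kb of a collagen 5′ end there were 4 other genes. RDH8, a retinol dehydrogenase, faced COL5A3 at 5139 bases. The nuclear receptor RXRB lay upstream of COL11A2 on the same strand at 2603 bases. The zinc transporter SLC39A7 lay farther upstream of COL11A2, on the opposite strand at 8811 bases, so RXRB stood nearer and the pair was not directly facing. UQCRC1, a subunit of the respiratory chain, lay upstream of COL7A1 on the same strand at 3558 bases.

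**Figure D4:**
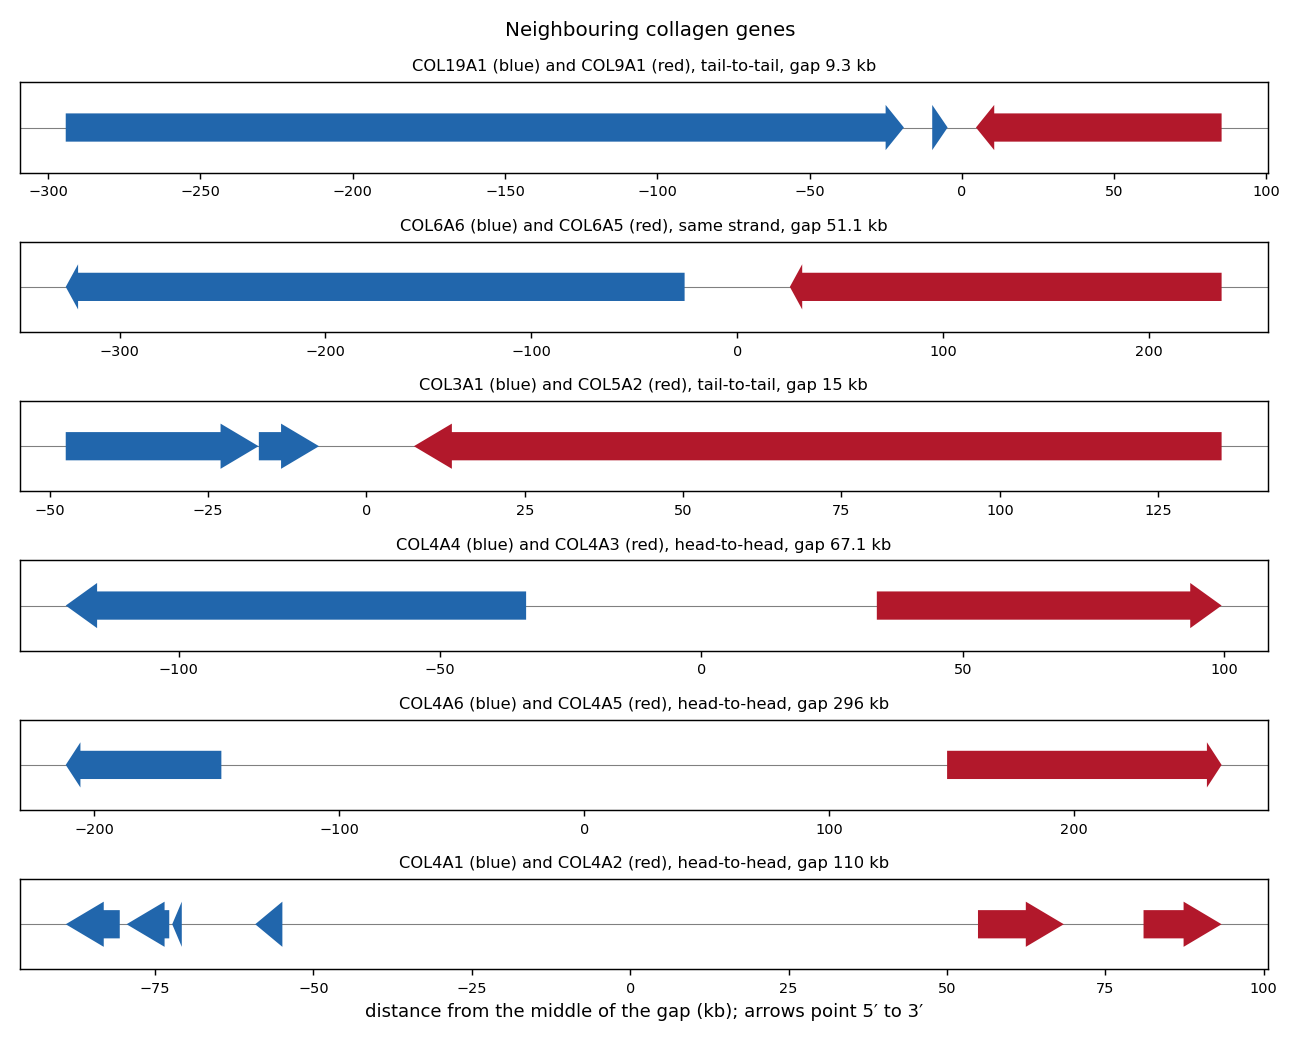
The 6 pairs of neighbouring collagen genes, drawn to scale along the scaffold as distance from the middle of the gap between them (kb, horizontal axis, a different scale in each plot); arrows are gene models and point 5′ to 3′. In the 3 type IV pairs at the bottom the arrows point away from each other across gaps of 67.1, 296 and 110 kb.

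For 3 of the 4 missing genes RefSeq's order gave neighbours, and COL20A1 was not placed. COL6A2 was present as a fragment of 4 exons and 1269 coding bases on scaffold 4, between 225957 and 235135. It was the one model in the 121 kb between FTCD and SLC19A1, where RefSeq's order also holds COL6A1. COL18A1 lies between SLC19A1 and POFUT2 in RefSeq's order, and the 57.9 kb between those deposited models, from 347419 to 405284 on scaffold 4, held 0 models. COL9A3 lies between OGFR and TCFL5 in RefSeq's order, and the deposited models of that pair overlap on scaffold 2, which leaves no interval between them. Of the 39 members that RefSeq names, 24 had the same named neighbour on both sides, 10 on 1 side and 5 on neither side, namely COL1A1, COL6A6, COL12A1, COL9A1 and COL13A1. This count takes models inside a gene as neighbours: for COL6A6 it took ASTE1, although COL6A5, its neighbour in RefSeq's order, was also the next collagen model with 0 models between. Names were compared as written, so a gene under different names in the deposited models and in RefSeq counts as a difference. COL8A2 had ADPRHL2 beside it here and ADPRS in RefSeq's order, and COL13A1 had C10orf35 here and FAM241B there. Whether such names belong to the same gene was not checked, so the count does not measure changes of gene order.

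Collagens were split over several models more often than other genes. At least 2 models were carried by 15 of the 40 symbols (37.5%), against 14.5% of the 16035 other symbols. Among symbols with a model of at least 20 coding exons, the shares were 13 of 32 (40.6%) and 13.2%. In 11 of the 15 the models were neighbours on 1 scaffold and strand with no other model between at least 2 of them (27.5% of the 40), against 6.97% of other symbols. In the 8 of these 11 whose models were matched to 1 target transcript, the matched parts followed in gene order.

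The gaps within split genes ranged from 15 bases in COL2A1 to 65.9 kb in COL22A1. COL2A1 was deposited as a model of 46 exons and another of 8, 15 bases apart, which sum to 54 exons and 4788 coding bases. COL3A1 had 33 and 13 exons, 41 bases apart, 46 in all. The second models carried the 3′ end of the genes: COL2A1_copy2 ended with exons of 289, 188, 243 and 147 bases and COL1A2 with 259, 185, 243 and 147, so that the last pair of exon lengths was the same.

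Longer chains of models were found in type IV, V and VI genes. COL6A3, the largest type VI chain, lay in 4 models that sum to 39 exons and 9711 coding bases, with gaps of 1.35 to 1.96 kb. The first of these held exons of 603, 585, 600, 573, 609, 606 and 615 bases, the size of its repeated von Willebrand factor A domains. COL5A1 lay in 3 models with 43 exons. COL4A1 lay in 4, of which 3 were direct neighbours with 30 exons, and a model without a symbol, of 5 exons and 1095 bases on the same strand, stood between these and the fourth. COL22A1 likewise had 3 models, with a model of 3 exons and 591 bases without a symbol between the second and the third. COL4A2, COL13A1, COL15A1, COL19A1 and COL25A1 each had a pair of neighbouring models, 9.3 to 61.3 kb apart.

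**Figure D5:**
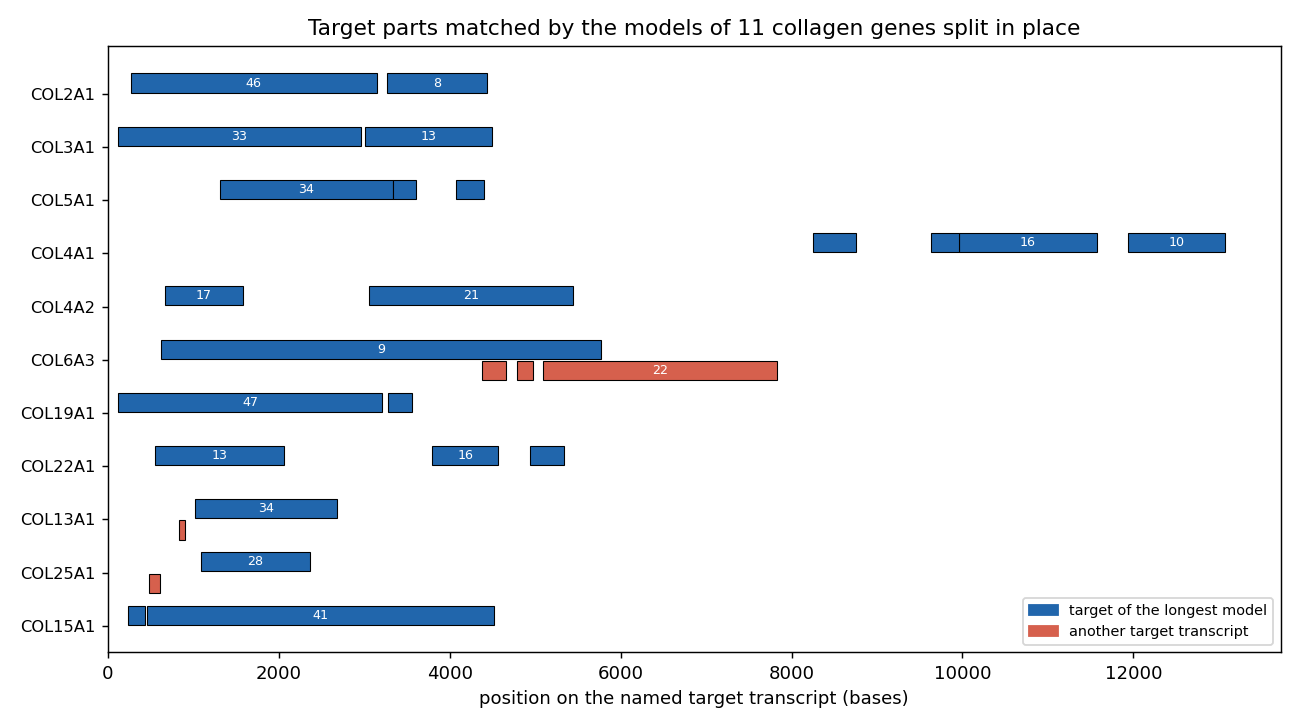
Part of the named target transcript (bases, horizontal axis) matched by each model of the 11 collagen symbols whose models lie side by side; the number in a bar is the model's coding exons, where it fits. Blue bars share the target of the longest model and do not overlap by more than a few bases; red bars, in COL6A3, COL13A1 and COL25A1, are matches to another transcript, whose positions are not comparable with the blue ones.

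The other 4 symbols had a short second model on another scaffold. COL11A1_copy2 had 5 exons and 600 coding bases on scaffold 7, with a deposited match score of 854, which was 11.3% of the score of COL11A1. COL7A1_copy2 had 6 exons and 480 bases on scaffold 8015 and matched bases 8360 to 8836 of the target, a part that the long COL7A1 model also matched. COL14A1_copy2 had 3 exons and 314 bases on scaffold 650. It matched bases 5351 to 5661 of the target, most of them beyond base 5425, where the match of the long COL14A1 model ended. COL6A6_copy2 was a single exon of 237 bases on scaffold 9 with 2.23% of the score of COL6A6. None of these 4 models held more than 6 coding exons.

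Proteins with a collagen-like domain lay between the collagens and other genes in their share of multiples of 9. Of 26 listed proteins with a collagen-like domain that are not collagens, 22 had a model, and COLEC11, SFTPA1, FCN1 and FCN2 had none. Their 104 internal exons were multiples of 9 in 45.2%, near the 47% of type IV and above the 31.7% of the COL15A1 models, and exactly 54 bases in 1.92%. MARCO had 11 of 12 in multiples of 9, COLQ, the collagen-like tail of acetylcholinesterase, 8 of 14, EMID1 5 of 13 and GLDN 3 of 10. EMID1 and the scavenger receptor MSR1 each had 2 models.

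Genes that make, modify or bind collagen stood near the level of other genes. Of 35 listed genes for collagen synthesis and processing 34 had a model, all but CTAGE5, and 11.6% of their 397 internal exons were multiples of 9. The prolyl hydroxylase subunit P4HA2, CRTAP, the export factor MIA3, the procollagen protease ADAMTS14 and SPARC had 2 models each. Of 11 listed collagen receptors 10 had a model, all but LAIR1, and none had more than 1. Their share of multiples of 9 was 14.4% of 201 exons, and the highest among those with at least 10 internal exons was that of CD44, a hyaluronan and matrix receptor, at 43.8%.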

How the data were processed

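The deposited annotation of build talOcc3 was used as deposited. Per the file columns, it gives first and last bases, counted from 1, the phase of coding exons and, on transcripts, the match score the authors assigned. Its formula is not stated in the labels or the file. The submitters' processing notes name BWA; its version, 4C contact values and library depth were not used here. Gene symbols were model names without suffixes. The model with most coding bases stood for a symbol, in the ranking among its models with at least 10 internal exons. Runs needed 5 exons, neighbours lay within 1000 kb, head-to-head pairs within 10 kb, and target parts counted as separate when they overlapped by at most 20% of the shorter. RefSeq's table (MPIMG_talOcc4v2.1) gave names and order only. Sequences were not analysed here. Members and lists were chosen with earlier results of these data known. Beside all members, the text names neighbours within 10 kb of a 5′ end, the 10 other symbols richest in multiples of 9, and listed genes without a model, with at least 2 models or with at least 10 internal exons; TPTE2P2 and the genes beside missing or nested models were chosen after their values were seen. Python 3.11.15 and SciPy 1.17.1 were used. No test between samples was made. On simulated models the routines recovered 200 of 200 exon counts, runs, shared runs and splits and 100 of 100 pairs, with 0 extra.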

Additional observations from a re-analysis of the deposited data

How the results depend on the processing

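Counting all coding exons, first and last included, lowered the share of multiples of 9 from 63.8% to 60.1% and that of exactly 54 bases from 24.4% to 22.7%. Symbols with several models fell from 15 of 40 to 7 when models that matched separate parts of a target were merged, and to 6 when neighbouring models on 1 strand were. Among the 16035 other symbols the same merges lowered the number from 2333 to 1968 and to 1468. The difference between collagens and other symbols was therefore smaller after either merge. The head-to-head count was 0 at 1 kb, 10 kb and 50 kb and with any number of models between, and 3 at 1000 kb. The neighbour and 1000 kb settings were chosen after seeing the data. Under the other settings the share of multiples of 9 lay between 63.8 and 64.7%, that of exactly 54 bases between 24.4 and 25.1%, and the median exon number between 40 and 43.5, and the median span rose from 52.1 to 60.8 kb. Joining segments less than 30 bases apart moved neither the exon shares nor the median exon number. Leaving out low-confidence models could change nothing, as 0 collagen models carried that mark. No paired analysis was possible because the annotation has no sample columns and no result comes from a test. Precision is limited by 1 assembly with 1 transcript per gene, and untranslated exons were not read.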
